A study of Homo sapiens with 18 samples.

Results

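The N-myc downstream regulated gene (NDRG) family was examined in HCT116 cells, an established human colorectal carcinoma line, sampled at low and at high density. Its members were taken by name as NDRG1, NDRG2, NDRG3 and NDRG4, which are 4 of the 38055 genes in the whole transcriptome table. The wild-type cells were grown in two-dimensional culture in McCoy's 5A medium with serum and harvested on day 3, at 50% confluency, or on day 5, at 250% confluency. Each day had 3 biological replicates, and the comparison asked how the RNA of whole cells changed as the culture grew past a monolayer. Day and density changed together, so they cannot be told apart, and 1 cell line in 1 medium was followed. Whole transcriptome values of day 7 were not analysed here.

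NDRG proteins share an alpha/beta hydrolase fold but lack the catalytic residues of the enzymes that have it. NDRG1 is a cytoplasmic protein that restrains metastasis in several carcinomas, colorectal cancer among them, and it is one of the best known transcripts induced by low oxygen, iron depletion and cell stress. NDRG2 is abundant in brain and often lost in tumors. NDRG3 is a protein whose stability is controlled by oxygen and lactate. NDRG4 is best known in heart and brain, and methylation of its promoter is used as a stool DNA marker of colorectal cancer.

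NDRG1 carried nearly all of the density response of the family. It rose 25.7-fold from day 3 to day 5, whereas NDRG4 rose 2.05-fold and NDRG3 rose 1.37-fold. NDRG2 was not distinguishable between the days (1.21-fold, 95% interval 0.925 to 1.59). Per kilobase of transcript, NDRG1 made up 93.2% of the difference between the family totals of the 2 days on summed exon length, and 97.5% on canonical transcript length. All 4 genes passed the filter on low values, and 3 of 4 were called by limma at a Benjamini-Hochberg adjusted p of 0.05, all of them higher on day 5. Calls were common in this comparison, since limma called 56.9% of the 20129 genes tested, with 29.3% higher and 27.6% lower on day 5. For 3 of the 4 genes the libraries of the days did not overlap, against 65% of all genes tested. It was therefore the size of the NDRG1 response, and not the number of members called, that stood apart from the other genes.

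The 6 libraries held 27470978 to 56689369 reads on genes. Within a day the log2 values of any pair of libraries correlated with r of at least 0.988, and no pair from different days exceeded 0.964. The 10 most abundant genes took 11.8% to 12.9% of the reads on day 3 and 8.10% to 8.23% on day 5, and mitochondrial transcripts took 0.102% to 0.172%. Among 6 epithelial markers tested, 5 were higher on day 5, against 29.3% of all genes tested. EPCAM was not called and was present at a mean normalized value of 7227 on day 3 and 7236 on day 5. CDH17, an intestinal cadherin, was near 0, with means of 3.65 and 1.08. The summed epithelial values ran from 37952 to 56451 on day 3 and from 105565 to 106072 on day 5. Of 7 neural and glial markers, 3 were tested, with SYT1 at means of 3284 and 3295, SNAP25 near 23 and 26, and MAP2 higher on day 5 at a log2 fold change of 0.47 (adjusted p of 0.0124 by limma). The glial markers GFAP, AQP4 and S100B and the neuronal marker RBFOX3 were below the filter, and the list summed to 3383 to 3628 on day 3 and 3416 to 3857 on day 5, nearly all of it SYT1. Of the fibroblast, endothelial and leukocyte markers, CDH5, PTPRC, CD68 and PDGFRB were near 0 and PECAM1 had no entry. Only 2 were tested. COL1A1 was higher on day 5 at a log2 fold change of 1.12 (adjusted p of 0.000289 by limma), and COL1A2 was not called at -0.39. The list summed to 513 to 595 on day 3 and 1120 to 1185 on day 5, nearly all of it COL1A1. The part of these shifts in the results was not tested. In bulk RNA, a change in the number of cells of one kind and a change in RNA per cell cannot be told apart.

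NDRG1 (ENSG00000104419) lies on the minus strand of chr8:133237175-133302022 in GRCh38, and its canonical transcript has 16 exons. Its deposited normalized values were 1211, 1208 and 1429 in the 3 day 3 libraries and 29430, 34148 and 35438 in the 3 day 5 libraries. Every day 5 library lay far above every day 3 library, and the lowest of day 5 was 20.6 times the highest of day 3. These values rested on 1008 to 1954 reads per library on day 3 and 27137 to 34224 on day 5, so counting error was small beside the change. The mean rose from 1283 ± 127 to 33006 ± 3163 (SD, n = 3), a log2 fold change of 4.68 ± 0.11 (SE, 95% interval 4.40 to 4.97) with an adjusted p of 5.60e-05 by limma. As a share of all reads on genes, NDRG1 went from 0.00356% to 0.0961%.

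Among the 20129 genes tested, 7 had a larger log2 fold change than NDRG1. They were CA9 at 6.31, HIF1A-AS3 at 6.23, ANGPTL4 at 6.07, ANKRD30BL at 5.21, MIR663AHG at 5.06, MIR3648-2 at 4.74 and ENSG00000264063 at 4.71. CA9 encodes a carbonic anhydrase of the cell surface and ANGPTL4 a secreted regulator of lipoprotein lipase. MIR3648-2 has a near-identical copy elsewhere, so its reads are uncertain. The annotated exons of ENSG00000264063 are very short, so its level is uncertain too. CA9 and HIF1A-AS3 ended at low mean normalized values on day 5, 199 and 196, compared with 33006 for NDRG1. In RPKM, the reads per kilobase of summed exon length scaled to the reads on genes of each library, NDRG1 moved from rank 9327 to rank 348 among the 19288 tested genes with a length. On this length it thus passed from the middle of these genes to a level above 98.2% of them. The day 3 rank rests on the length used, because the summed exons of NDRG1 span 12002 bases and its canonical transcript 3025. NDRG3, with nearly as many reads on day 3 and summed exons of 3260 bases, ranked 3756 on that day.

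**Figure D1:**
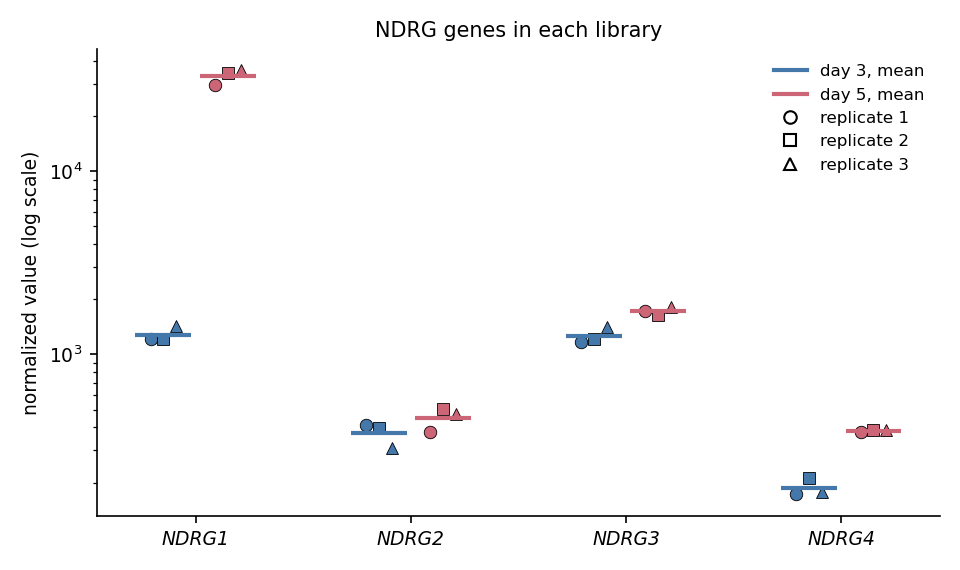
Deposited normalized value (log axis) of each NDRG gene in the 3 day 3 libraries (blue) and the 3 day 5 libraries (red), with symbols for the replicate number and bars at the mean of each day. NDRG1 moved from 1208 to 1429 up to 29430 to 35438, NDRG3 and NDRG4 moved by smaller steps without overlap, and the NDRG2 libraries of the days overlapped.

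NDRG3 (ENSG00000101079) lies on the minus strand of chr20:36651766-36746090. Its protein is kept low by prolyl hydroxylation in oxygenated cells and is stabilized when lactate binds it. Its normalized values were 1166, 1209 and 1416 on day 3 and 1731, 1649 and 1804 on day 5. The 3 day 5 libraries were all above those of day 3, by a narrow margin of 1.16 times between the closest libraries. The mean rose from 1264 ± 134 to 1728 ± 77.2 (SD, n = 3), with a log2 fold change of 0.46 ± 0.10 (SE, 95% interval 0.21 to 0.70) and an adjusted p of 0.0102 by limma. This call was lost when the filter on low values was dropped, where the same change had an adjusted p of 0.0548 by limma. It was kept under the other settings run. The adjusted p was 0.00138 by limma on values scaled to library totals. On recovered reads it was 5.80e-05 by edgeR and 1.30e-05 by DESeq2. In size the change was unexceptional, ranking 5673 among the 20129 genes tested.

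NDRG4 (ENSG00000103034) lies on the plus strand of chr16:58462846-58513628. It was the least abundant member per kilobase on both days. Its normalized values were 172, 212 and 177 on day 3 and 376, 386 and 386 on day 5. The days were well separated, with the lowest day 5 library at 1.77 times the highest of day 3. The mean rose from 187 ± 21.7 to 383 ± 5.62 (SD, n = 3), with a log2 fold change of 1.03 ± 0.10 (SE, 95% interval 0.79 to 1.28) and an adjusted p of 0.000500 by limma. The reads behind these values were 125 to 343 on day 3 and 347 to 373 on day 5, so a single day 3 value carried more counting error than for NDRG1 or NDRG3. NDRG4 ranked 2011 among the genes tested by size of change.

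NDRG4 has 55 annotated transcripts and several start sites, which gene-level values do not separate. The RefSeq windows at these starts (GRCh38.p14, 250 bases before to 50 bases after each start) differed widely in CG dinucleotides, the bases that DNA methylation acts on. The window 36428 bases upstream of the canonical start held 49 CG, more than 98.4% of 35116 such windows, and the window at the canonical start held 7. The 250 bases before each of these starts are shown because the contrast concerns which part of the locus is rich in methylation sites. They are given 5′ to 3′ on the plus strand, at chr16:58463465-58463714 with 40 CG and at chr16:58499893-58500142 with 3, and capitals mark CG.
NDRG4 upstream start: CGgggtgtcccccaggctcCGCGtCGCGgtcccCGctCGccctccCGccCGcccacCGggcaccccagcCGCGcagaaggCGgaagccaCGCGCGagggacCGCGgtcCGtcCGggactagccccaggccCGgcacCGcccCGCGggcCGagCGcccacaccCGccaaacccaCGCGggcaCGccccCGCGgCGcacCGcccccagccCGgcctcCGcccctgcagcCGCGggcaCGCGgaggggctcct
NDRG4 canonical start: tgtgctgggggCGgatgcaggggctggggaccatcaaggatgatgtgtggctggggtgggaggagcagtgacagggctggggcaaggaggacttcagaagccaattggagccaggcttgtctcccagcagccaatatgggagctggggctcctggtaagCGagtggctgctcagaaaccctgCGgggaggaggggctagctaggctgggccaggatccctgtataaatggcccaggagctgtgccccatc

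NDRG2 (ENSG00000165795) lies on the minus strand of chr14:21016763-21070872, and its promoter is reported to be methylated in several tumor types. Its normalized values were 411, 396 and 310 on day 3 and 380, 504 and 470 on day 5. The groups overlapped, because day 5 replicate 1 lay below day 3 replicates 1 and 2. The means were 373 ± 54.3 and 451 ± 64.2 (SD, n = 3), with a log2 difference of 0.28 ± 0.16 (SE, 95% interval -0.11 to 0.66) and an adjusted p of 0.185 by limma. A change of up to 1.59-fold lay within this interval, so a modest rise was not detectable at this spread and is not shown to be absent. The estimate depended on single libraries, and without day 3 replicate 3 it was 0.15.

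The locus of NDRG2 is crowded. ARHGEF40, a guanine nucleotide exchange factor gene on the opposite strand, overlaps the 5′ end of NDRG2 at its farthest annotated start. That start lies 45811 bases upstream of the canonical start. ARHGEF40 was higher on day 5, with a log2 fold change of 0.67 and an adjusted p of 0.00464 by limma. The study's methods describe strand-specific counting, which separates the reads of such a pair. In all, 5 RefSeq windows cover annotated starts of NDRG2, and they held 4 to 27 CG. The window at the canonical start held the most, and its 250 upstream bases (minus strand, chr14:21025062-21025311, 23 CG in capitals) are shown for comparison with the NDRG4 starts.
NDRG2 canonical start: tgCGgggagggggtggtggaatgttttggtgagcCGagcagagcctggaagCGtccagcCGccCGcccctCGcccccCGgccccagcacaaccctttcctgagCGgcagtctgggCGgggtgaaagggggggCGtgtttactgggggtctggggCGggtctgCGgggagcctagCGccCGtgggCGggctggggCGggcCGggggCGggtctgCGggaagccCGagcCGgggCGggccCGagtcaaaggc

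None of the 9 windows of NDRG2 and NDRG4 held ACGTG on either strand, the core of the element bound by hypoxia-inducible factors, which 21.4% of all 35116 windows held. None held CACGTG, the E-box bound by MYC proteins, either, which contains ACGTG and was in 7.26% of windows. This says only that these letters were not in these windows. For NDRG1 and NDRG3 there were no windows to search, so the members cannot be compared in this.

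The members are similar genes, so the reads of one could in principle be counted for another. Their coding sequences were 66.4% to 73.3% identical in pairwise alignment, and the longest stretch shared exactly between any pair was 27 bases. That is shorter than a sequencing read, so a read within the coding sequence holds bases that differ between members.

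The order of the members was compared per length, since longer transcripts give more reads. On summed exon length, day 3 levels in RPKM were 10.8 ± 0.352 for NDRG3, 2.97 ± 0.0927 for NDRG1, 1.38 ± 0.289 for NDRG2 and 0.541 ± 0.0791 for NDRG4 (SD, n = 3). No neighbours in this order overlapped in any library. The order at the top rested on the choice of length, because NDRG1 has 61 annotated transcripts whose exons sum to 12002 bases and NDRG3 has 5 that sum to 3260. On the length of the canonical transcript, 3025 and 2971 bases, NDRG1 and NDRG3 stood at RPKM levels of 11.8 ± 0.368 and 11.8 ± 0.386 and did not differ beyond their spread.

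On day 5 NDRG1 led on either scale. In RPKM on summed exon length it reached 80.1 ± 7.04, followed by NDRG3 at 15.4 ± 0.520, NDRG2 at 1.74 ± 0.245 and NDRG4 at 1.16 ± 0.0163. In RPKM on canonical length the same order held, at 318 ± 27.9, 16.9 ± 0.570, 4.41 ± 0.622 and 3.48 ± 0.0491. NDRG2 and NDRG4 were closest to each other, and their day 5 libraries still did not overlap on the canonical scale, 3.74 to 4.97 against 3.44 to 3.53.

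The share of the family held by each gene turned over between the days. On summed exon length NDRG1 went from 19.0% ± 0.494 to 81.3% ± 1.31 (SD, n = 3), a gain of 62.4 percentage points. NDRG3 fell from 68.7% ± 1.88 to 15.7% ± 1.37, although its own level rose. On canonical length its share went from 41.1% to 4.97%, so that NDRG3 led the family on day 3 on summed exon length and stood level with NDRG1 on the other. NDRG2 went from 8.86% ± 1.89 to 1.76% ± 0.150, and NDRG4 from 3.46% ± 0.522 to 1.18% ± 0.0823. The libraries of the days did not overlap for any of the 4 shares. Each reached an exact two-sided permutation p of 0.1, the smallest that 3 against 3 allows (Benjamini-Hochberg over the 4 shares, 0.1). The shares of a library sum to a fixed whole, so the gain of NDRG1 forces the others down together. The 4 tests are therefore not separate results. On canonical length the NDRG1 share went from 41.0% to 92.7%.

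The family total rose 6.29 times, from 15.6 ± 0.0872 to 98.4 ± 7.19 RPKM on summed exon length. With NDRG1 left out, the total of the other members went from 12.7 ± 0.0315 to 18.3 ± 0.419, which is 1.45 times. NDRG3 accounted for 5.67% of the difference in the family total, NDRG4 for 0.743% and NDRG2 for 0.430%. These values moved with the length used. On canonical length the total rose 11.9 times, from 28.7 ± 0.239 to 343 ± 28.4 RPKM, NDRG3 accounted for 1.64% of the difference, NDRG4 for 0.589% and NDRG2 for 0.288%.

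**Figure D2:**
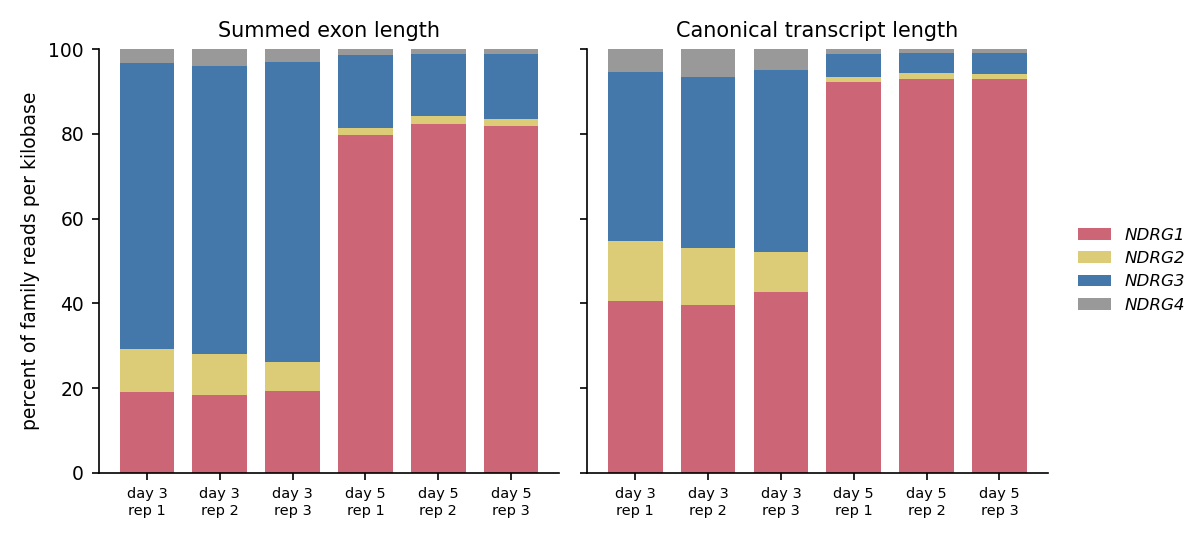
Percent of the family's reads per kilobase held by each NDRG gene in each library, with lengths from the summed exons (left) or from the canonical transcript (right); each bar is 1 library. The NDRG1 share rose from 18.4% to 19.4% on day 3 to 79.8% to 82.3% on day 5 on summed exon length, and from a mean of 41.0% to 92.7% on canonical length.

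Ratios within a library do not depend on scaling between libraries, and they compare the responses of the members directly. The log2 ratio of NDRG1 to NDRG3 values was 0.05, -0.00074 and 0.01 on day 3 and 4.09, 4.37 and 4.30 on day 5. NDRG1 thus gave almost the same number of reads as NDRG3 in each day 3 library and many times more in each day 5 library. The response of NDRG1 exceeded that of NDRG3 by 4.23 ± 0.09 on the log2 scale (SE, 95% interval 3.99 to 4.47). It exceeded that of NDRG2 by 4.41 ± 0.21 (3.81 to 5.00) and that of NDRG4 by 3.65 ± 0.16 (3.20 to 4.10).

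The responses of the other members differed less from each other. NDRG4 rose more than NDRG3, with a difference in the log2 ratio of NDRG3 to NDRG4 of -0.58 ± 0.15 (SE, 95% interval -0.98 to -0.17), and more than NDRG2, with a difference of -0.76 ± 0.18 (-1.24 to -0.27) in the ratio of NDRG2 to NDRG4. The intervals, which assume normal errors, excluded 0 in both, and the ratios of the days did not overlap. NDRG2 and NDRG3 were not told apart, with a difference of -0.18 ± 0.25 and an interval from -0.88 to 0.52. Of the 6 pairs, 5 reached an exact two-sided permutation p of 0.1, the smallest possible (0.12 after adjustment over the 6 pairs), and the pair NDRG2 and NDRG3 had an exact p of 0.5.

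**Figure D3:**
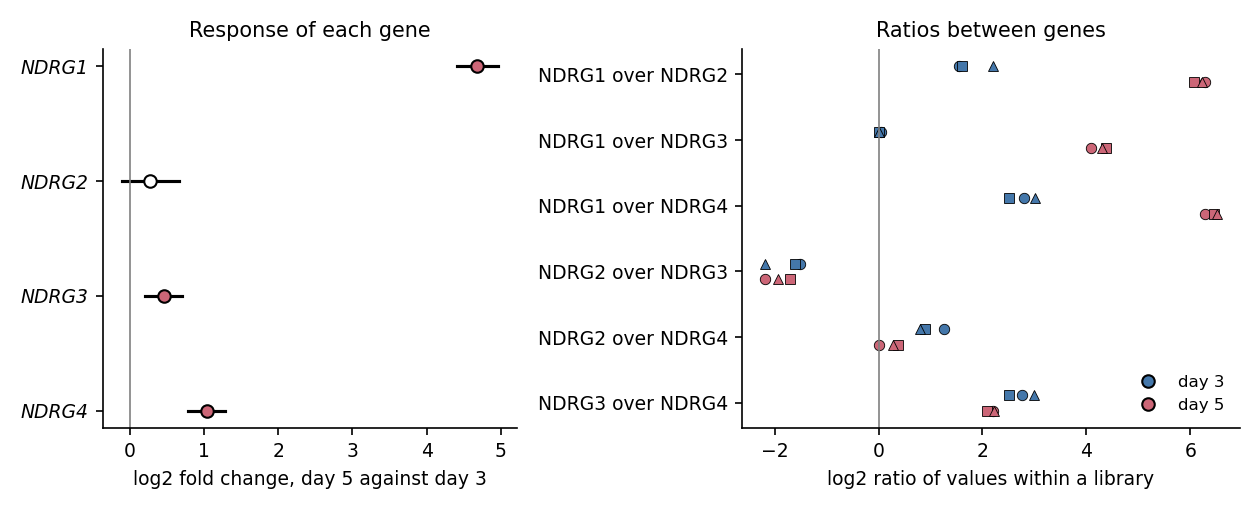
Left, log2 fold change from day 3 to day 5 of each NDRG gene with its 95% interval (limma), filled where called; right, log2 ratio of the values of each pair within a library, day 3 in blue and day 5 in red, with circles, squares and triangles for replicates 1, 2 and 3. The ratios that hold NDRG1 shifted by 3.65 to 4.41 and those without it by at most 0.76 in size; the zero of the ratios is not corrected for length, so only the shift between days compares genes.

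Transcription regulators of NDRG1 were examined as a list of 7, of which 6 were tested. By limma 5 were higher and 1 was lower on day 5, with a median log2 fold change of 0.86 against 0.01 over all genes tested. Of all genes tested, 29.3% were higher and 27.6% lower. As the list was chosen with results of these data known, its count and median are a description only. HIF1A, the oxygen-regulated subunit of hypoxia-inducible factor 1, fell from a mean normalized value of 6471 to 4178, with a log2 fold change of -0.63 and an adjusted p of 0.00210 by limma. EPAS1, which encodes the corresponding subunit of factor 2, rose from 466 to 1852, with a log2 fold change of 2.00 and an adjusted p of 0.000235 by limma. ARNT, the partner of both, rose by 0.73.

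EGR1 and SP1, zinc finger activators, rose by 0.95 and 0.76 on the log2 scale. MYC, a repressor of NDRG1, also rose, by 1.03 with an adjusted p of 0.00104 by limma, and so moved in the same direction as NDRG1. MYCN, the repressor that gave the family its name, had 1 read in each of 2 libraries and none in the others.

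The kinases that phosphorylate NDRG1 were a list of 5, of which 3 were higher, 1 was lower and 1 was not called, with a median of 0.66. This list had 80% called, against 56.9% of all genes tested, and 5 genes are too few to set it apart. SGK1, the best known of them, was at mean normalized values of 191 and 160 and was not called, with an adjusted p of 0.166 by limma. SGK3 fell by 0.66 and SGK2 rose by 0.85. GSK3A and GSK3B, which act after the SGK kinases on the same protein, rose by 0.66 and 0.68.

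The oxygen and lactate axis of NDRG3 was a list of 6, of which 3 were higher, 1 was lower and 2 were not called by limma, with a median of 0.65 over these 6. That is 66.7% called, near the 56.9% of all genes tested. EGLN1 and EGLN3, prolyl hydroxylases whose own transcripts are induced in hypoxia, rose by 1.53 and 2.79, whereas EGLN2 was not called at -0.28. LDHA, which favors lactate production, rose by 1.10, and LDHB, which favors its use, fell by 1.21. VHL, the ubiquitin ligase subunit that recognizes hydroxylated targets, was not called, at 0.20.

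Proteins that bind NDRG1 or respond to it were a list of 7, of which 3 were higher, 1 was lower and 3 were not called, with a median of 0.17. That is 57.1% called, against 56.9% of all genes tested, so the count does not set the list apart. CDH1, the E-cadherin whose recycling NDRG1 assists, rose from a mean normalized value of 637 to 3940, with a log2 fold change of 2.63 and an adjusted p of 1.00e-04 by limma. ERRFI1, an inhibitor of the EGF receptor, rose by 2.15, and CD82, a metastasis suppressor of the tetraspanin family, rose by 0.61. CTNNB1, the beta-catenin gene, was lower at -0.27, a call lost in 5 of the 6 fits that left out 1 library. RAB4A, a GTPase of endosome recycling, and LRP6, a Wnt coreceptor, were not called at -0.26 and 0.04, nor was ATF3, a stress-response factor, at 0.17.

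A list of 14 hypoxia-inducible genes was set beside NDRG1. The list was chosen with results of these data known, so its count and order are a description only. All 14 were higher by limma, against 29.3% of all genes tested, with log2 fold changes from 1.39 for MXI1 to 6.31 for CA9 and a median of 2.56. Within this list only CA9 had a larger log2 fold change than NDRG1. CA9 had 1, 1 and 3 reads in the day 3 libraries, so the size of its fold change is uncertain. ANKRD37 at 4.10, BHLHE40 at 3.92 and PFKFB4 at 3.64 came next below NDRG1. ANGPTL4 at 6.07, which is also known as hypoxia-inducible and is not on the list, rose more than NDRG1. VEGFA, the angiogenic growth factor, rose by 1.65 and PGK1, a glycolytic enzyme, by 1.41. NDRG4 at 1.03 and NDRG3 at 0.46 lay below the lowest of the 14.

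**Figure D4:**
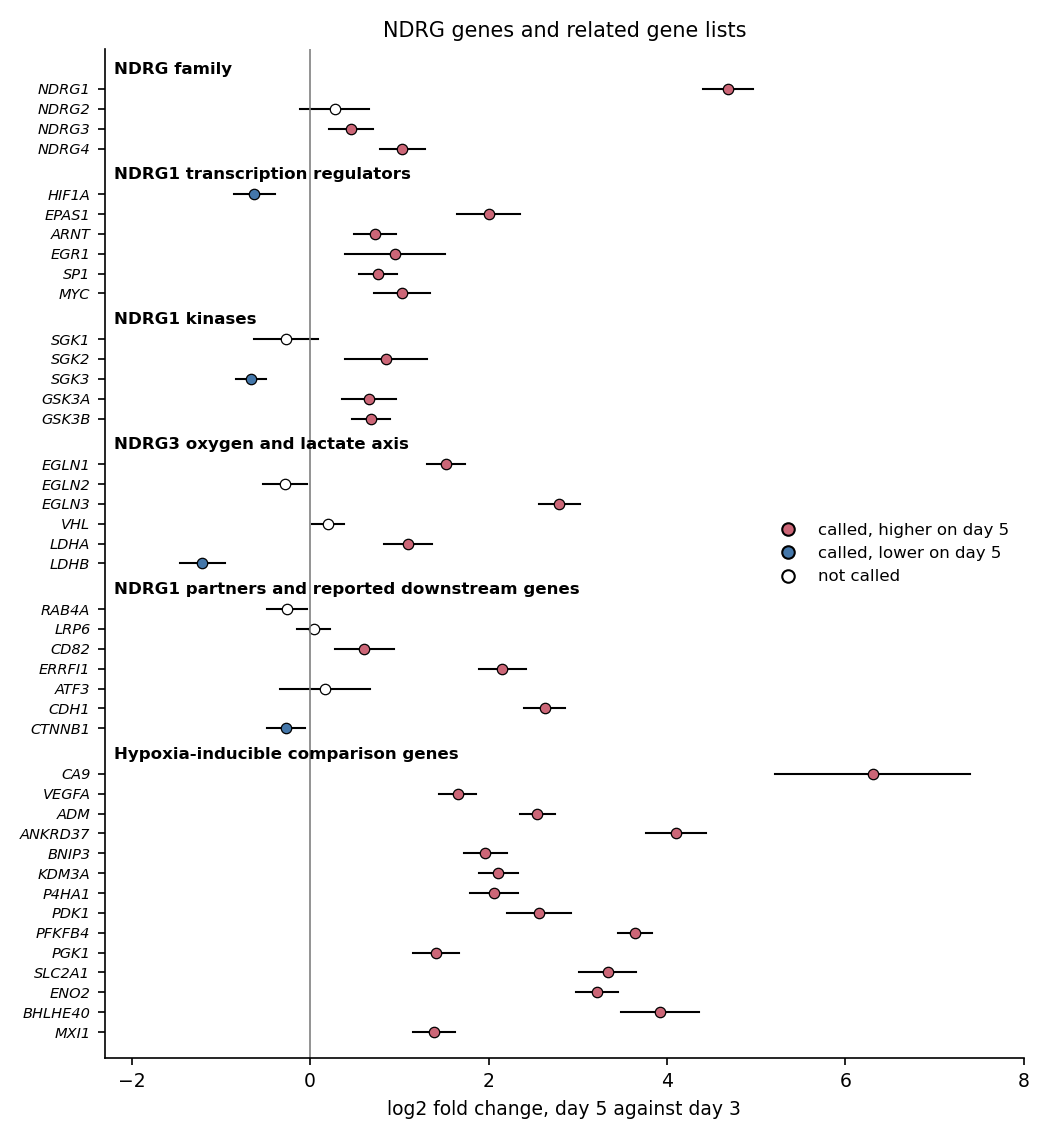
Log2 fold change from day 3 to day 5 with its 95% interval (limma, 3 libraries a day) of the NDRG genes and of every tested gene in the 5 related lists, red where called higher, blue where called lower and white where not called. NDRG1 at 4.68 lay below only CA9 among the 14 hypoxia-inducible genes, and the other members at 0.28 to 1.03 lay below the range of the 14.

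Across all 6 libraries, the gene most like NDRG1 was DDIT4, an inhibitor of mTOR complex 1 that is induced by low oxygen and stress. Likeness was the distance between log2 profiles centered on each gene's mean, among 12715 candidates with a mean normalized value of at least 100. DDIT4 was at a distance of 0.276 and rose from 506 to 11395, with a log2 fold change of 4.49. ENSG00000264063 at 0.507, MIR3648-2 at 0.524, ALDOC at 0.727 and ANKRD37 at 0.733 came next. ALDOC is a glycolytic aldolase, and it rose by 4.22. The genes nearest to NDRG4 were HNRNPUL2, APOLD1, TAF4, ZNF697 and CHSY1, those nearest to NDRG3 were PIP4K2C, HOXA6, GMPPA, TMEM25 and ATXN1L, and those nearest to NDRG2 were MOSMO, MIR3936HG, SMG1P6, CFAP43 and H2BC20P. The points share their libraries and 1 contrast, so these are descriptions of likeness.

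Genes within 100 kb were examined to see whether the rise of NDRG1 was part of a wider change at its locus. None of the 3 neighbours of NDRG1 in the table passed the filter, and the closest coding gene, CCN4, 5485 bases away, had 0 reads in 4 of 6 libraries and at most 2 in the others. NDRG1 was thus the only gene of the table in that interval to pass the filter. With no neighbour to compare, a wider change at its locus was not tested. At the NDRG3 locus 6 neighbours were tested, of which SOGA1 and TGIF2 were higher at 1.03 and 0.95, DSN1 and RAB5IF were lower at -0.97 and -1.25, and 2 were not called. At the NDRG4 locus 6 were tested, of which CNOT1 was higher at 0.36 (a call lost in 5 of the 6 fits that left out 1 library), SETD6 and GINS3 were lower at -0.52 and -0.77, and 3 were not called. At the NDRG2 locus all 3 tested were called, ARHGEF40 and ZNF219 higher, the latter at 0.91, and METTL17 lower at -0.27, a call lost in 4 of the 6 fits that left out 1 library. Since 56.9% of all genes tested were called, calls among so few neighbours do not set these loci apart.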

How the data were processed

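RNA of HCT116 cells was sequenced as paired-end reads, with 3 libraries on day 3 and 3 on day 5. Per the study's methods and the submitters' processing notes, the authors used bcl2fastq, FastQC 0.11.8 and MultiQC 1.7, trimmed the reads and mapped them strand-specifically to hg38 genes in CLC Genomics Workbench. The deposited values are a normalized signal for each gene in each of the libraries. They were whole multiples of 1 read for 100% of entries (tolerance 0.1 read), so the 27470978 to 56689369 reads per library were recovered. The table's columns of the authors' own comparison (fold changes and p-values) and the miRNA tables were not used.

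The test was limma 3.58.1 in R 4.3.3 on log2(value + 1) over the 20129 genes that reached 10 in 3 or more libraries, with Benjamini-Hochberg adjustment and a threshold of 0.05. Fold changes are on that scale. The design had allowed for counts; since the unit was a normalized signal, limma was used. edgeR 4.0.16 and DESeq2 1.42.0 on the recovered reads were alternatives. On simulated data, 146 of 192 genes changed 2-fold were called among 19846, with 11 false calls. The simulation changed few genes, gave all genes the same dispersion and scaled by known library sizes. These data differ in that, so the rates need not hold for them. Shares and ratios were compared by exact permutation tests over libraries in Python 3.11.15 with scipy 1.17.1.

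Lengths, loci and coding sequences came from GENCODE 44 (GRCh38), and coding sequences were aligned with Biopython 1.88. The study's methods name a different annotation release, from Ensembl, for the counting. The exon lengths therefore need not match the exons counted. Windows came from RefSeq, by symbol, which matched NDRG2 and NDRG4. The genes named are the 4 members, the genes of the lists, genes with a larger rise than NDRG1, the 5 genes most like each member and neighbours within 100 kb. The members and lists were chosen with earlier results of these data known; some list genes are not reported here, and counts and medians cover the others. The p-values measure the spread between the 3 biological replicates of a day.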

Additional observations from a re-analysis of the deposited data

How the results depend on the processing

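The log2 fold changes kept their direction under every setting run. Over library totals, no filter, a pseudocount of 0.1, the replicate block, edgeR and DESeq2, they ranged from 4.68 to 4.75 for NDRG1, 0.25 to 0.34 for NDRG2, 0.44 to 0.52 for NDRG3 and 1.00 to 1.10 for NDRG4. NDRG2 was called under none of them (adjusted p 0.109 to 0.343). NDRG3 lost its call with no filter on low values (0.46, adjusted p 0.0548 by limma), where 38055 genes were tested and 9235 called. Requiring at least 2-fold left 3589 of the 11450 calls. Dividing by library totals called 11377 genes, with 56.2% of calls higher against 51.5%.

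Leaving out 1 library gave 4.63 to 4.76 for NDRG1, 0.15 to 0.40 for NDRG2, 0.40 to 0.54 for NDRG3 and 0.98 to 1.13 for NDRG4, and 9811 to 11380 calls. It changed no call of a member. The gain in the NDRG1 share was 61.9 to 63.1 percentage points. A canonical transcript length, chosen after seeing the data, gave 41.0% and 92.7% for the days, a rise of the family total of 11.9 times in place of 6.29, and parts of its difference of 1.64% for NDRG3 and 0.288% for NDRG2 in place of 5.67% and 0.430%. By edgeR all 6 genes of the oxygen and lactate list were called in place of 4, and 5 of 7 partners in place of 4.

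With the replicate block, NDRG1 was at 4.68 (adjusted p 0.00413 by limma) and 10533 genes were called. No shared deviation of same-numbered libraries was visible, with r of -0.011, 0.034 and 0.023. These values cannot show whether the replicates were grown or processed in matched sets. Below about 200 reads, as for NDRG4 in 2 day 3 libraries, counting error limits single values.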
